A study of Mus musculus with 6 samples.

Results

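The genes described are those of the cytoplasmic ribosomal proteins and of their paralogs and retrocopies. They were taken by name from a table of 55401 genes: every symbol built as Rpl or Rps with a number, or Rpsa and Rplp0 to Rplp2, and without the Rps6k kinases. This gave 92 genes. Of these, 77 are the canonical genes (46 of the large, 60S subunit and 31 of the small, 40S subunit) and 13 are paralogs or retrocopies. The other 2 match the name and were kept apart from the 13. They are Rps19bp1, whose product binds RPS19, and Rps23rg1, a gene derived from a retroposed Rps23. The libraries are poly(A) RNA sequencing of mesenchymal stromal cells (connective tissue progenitors of the marrow) grown from femurs of C57/B6J mice. There were 3 libraries of wild-type (WT) and 3 of NLRP3 knockout cells, and all 6 cultures had received 3 µg/mL lipopolysaccharide (LPS), a bacterial outer membrane component sensed by TLR4, for 24 h. The comparison therefore addresses how the genotypes differed under LPS. Neither the knockout allele nor the animal or culture behind each library is named in the labels. Every p-value below therefore reflects the variation among these 6 libraries alone, and that variation may be technical.

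A ribosome joins a small subunit, which reads the mRNA, to a large subunit, which forms the peptide bond. Each canonical ribosomal protein is needed in a fixed ratio to the others, and their mRNAs, among the most abundant of a growing cell, share a pyrimidine-rich start through which mTOR and LARP1 regulate their translation. Mammals also carry paralogs of some of these genes, among them retrocopies made by reverse transcription of an mRNA, several of which are used mainly in germ cells or striated muscle. Rpl39l is known from male germ cells, where its product can replace RPL39 near the peptide exit tunnel, and Rps4l is a retrocopy related to the X-linked Rps4x. Ribosomal protein genes have also left many processed pseudogenes, whose sequence can share reads with the active gene.

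The results turn on Rpl39l and Rps4l, and their sequences are shown first because the similarity to their parent genes decides whether reads can be told apart. The coding sequences of Rpl39l and Rpl39 without the stop codon, from GENCODE M21 (build GRCm38), are both 153 bases long and are printed in lower case with the differing bases in capitals.
Rpl39l: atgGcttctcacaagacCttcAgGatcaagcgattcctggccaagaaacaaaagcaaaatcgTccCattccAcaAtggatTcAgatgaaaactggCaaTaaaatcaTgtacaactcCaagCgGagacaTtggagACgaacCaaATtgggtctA
Rpl39: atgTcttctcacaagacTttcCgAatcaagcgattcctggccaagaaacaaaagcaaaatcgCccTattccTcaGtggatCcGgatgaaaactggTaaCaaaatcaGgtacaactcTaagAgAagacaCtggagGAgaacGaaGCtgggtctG
They differ at 23 positions (85.0% identical), spread over 21 of 51 codons, and the longest run without a difference is 38 bases. The first 150 bases of the Rps4x coding sequence and the matching stretch of the Rps4l transcript differ at 31 positions.
Rps4l: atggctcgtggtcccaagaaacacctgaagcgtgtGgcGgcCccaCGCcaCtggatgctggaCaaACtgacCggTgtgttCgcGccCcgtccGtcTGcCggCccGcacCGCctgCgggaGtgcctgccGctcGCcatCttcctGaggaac
Rps4x: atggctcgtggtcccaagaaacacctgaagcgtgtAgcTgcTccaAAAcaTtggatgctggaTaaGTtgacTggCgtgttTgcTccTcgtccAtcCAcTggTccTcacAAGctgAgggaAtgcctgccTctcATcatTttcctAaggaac
Over all 789 aligned bases Rps4l was 79.6% identical to Rps4x, with 161 differences, no gap inside the aligned stretch and a longest identical run of 35 bases. The deposited table lists Rps4l as a transcribed processed pseudogene and a processed transcript; its frame, read in register with Rps4x, has 262 codons before the first stop.

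Windows of 150 bases tell these 2 genes from their relatives. None of the 656 windows of 150 bases in the principal Rpl39l transcript, and none of the 794 windows in Rps4l, occurs in a GENCODE transcript of another gene. For the parents the shares were 0% for Rpl39 and 4.48% for Rps4x. By contrast, 87.1% of the windows of Rps27rt, a retrocopy with the same coding sequence as Rps27, are found in other genes, as are 47.6% of those of Rpl6l and 20.1% of those of Rpl37rt. In all, 17 of the 92 genes share no window with another gene, and the canonical genes share a median of 24.7% of theirs.

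Rpl39l was close to silent in the WT cultures and well expressed in the knockout cultures. It lies on GRCm38 chromosome 16, positions 10170226 to 10174911 (plus strand). Its FPKM, fragments per transcript length and library size, was 0.07, 0 and 0.22 in WT replicates 1, 2 and 3, and 43.9, 36.6 and 44.9 in knockout replicates 1, 2 and 3. Every knockout library was above every WT library. The WT values rest on 4, 0 and 12 estimated counts and the knockout values on 2571, 1963 and 2449. If a fragment gives 4 estimated counts, an inference from how often low values are multiples of 4, these are 4 fragments against 1746, a ratio per library total of 430.1 with an exact 95% interval of 168 to 1581 that covers counting error only. On the log2(FPKM + 1) scale, which understates changes from low levels, the difference was 5.29 ± 0.11 (SE; limma adjusted p = 2.39e-06). Rpl39l reached the filter for testing, at least 1 FPKM in at least 3 libraries, only through the knockout libraries, so that p-value is conditioned on the group where it is high. With no expression filter beyond a value above 0 in at least 1 library, the limma adjusted p was 1.89e-05.

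Rps4l showed the same contrast. The gene lies on chromosome 6, positions 148354656 to 148355598 (plus strand), inside the transcribed region of Tmtc1 on the opposite strand. Its FPKM was 0.31, 0.26 and 0.34 in the WT libraries and 34.4, 30.8 and 42.5 in the knockout libraries, from 19, 19 and 20 against 2285, 1878 and 2632 estimated counts. The groups did not overlap. The count ratio was 115.5 (exact 95% interval 71.1 to 219, on the same inference and for counting error only), and the log2 difference was 4.81 ± 0.12 (limma adjusted p = 3.75e-06). Rps4l also passed the filter only through the knockout libraries, and with no expression filter the adjusted p was 3.10e-05. The library protocol marks strand, but whether the counting used it is not stated, so reads of Rps4l and Tmtc1 may not be told apart. Tmtc1 itself was listed between 0 and 0.03 FPKM in the 6 libraries.

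The parent genes were measured in the same libraries. Rpl39, which encodes a small protein of the exit tunnel, had 124, 119 and 127 FPKM in WT and 125, 95.9 and 127 in knockout libraries. The 2 groups overlapped, and the log2 difference was -0.10 with a 95% interval of -0.38 to 0.19 (limma adjusted p = 0.623). Without knockout replicate 2 it was 0.03. Rps4x, the X-linked gene of the small subunit, had 614, 552 and 613 FPKM in WT and 651, 555 and 661 in knockout libraries, a log2 difference of 0.07 with an interval of -0.19 to 0.33 (limma adjusted p = 0.723). As fold changes, their intervals bound any change of the parents to well below that of the copies. In FPKM they give no such bound for Rps4x, at 593 ± 35 in WT and 622 ± 59 in knockout libraries. Rps4l stood at 35.9 ± 6.0 FPKM in knockout libraries.

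As a share of the FPKM of a paralog and its parent together, Rpl39l made up 0.0565%, 0% and 0.173% in the WT libraries. In the knockout libraries it made up 26.0%, 27.6% and 26.1%. Rps4l made up 0.0470% to 0.0554% in WT and 5.01% to 6.04% in knockout libraries. For both pairs the log2 ratio of paralog to parent was higher in 3 of 3 knockout libraries, by 5.38 for Rpl39l and by 4.74 for Rps4l. The exact two-sided permutation test gave p = 0.1 for each, the smallest value 3 libraries against 3 allow, and 0.5 after Benjamini-Hochberg adjustment over the 10 pairs compared. Both pairs are among the 10 only because the knockout libraries are high, so these p-values are conditioned on that group.

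**Figure D1:**
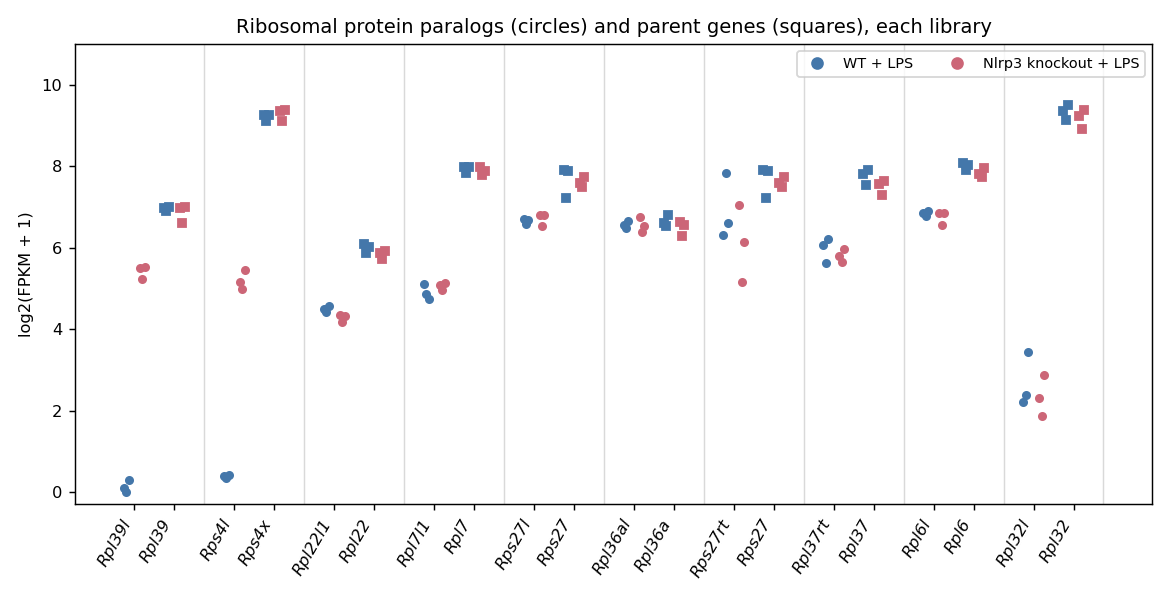
Level of 10 expressed paralogs (circles) and of their parent genes (squares) as log2(FPKM + 1) in each WT (blue) and Nlrp3 knockout (red) library. Rpl39l and Rps4l sit near 0 in the 3 WT libraries and above 4.9 in the 3 knockout libraries, while their parents overlap between the groups; the WT and knockout values of Rps27rt are widely spread.

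Genes next to Rpl39l and Rps4l were examined in the same way. Of 11 other tested genes starting within 1 Mb of Rpl39l, 1 was higher (Txndc11, 0.350 on the log2 scale) and 1 lower (Tvp23a, -0.34). Over all tested genes 10.4% were higher and 9.20% lower. The largest absolute difference among the 11 was 0.354 (Zc3h7a, not called). Of 6 tested genes within 1 Mb of Rps4l none was called by limma, and the largest difference was 0.80 (Sinhcaf, 4.91, 5.94 and 1.76 FPKM in WT and 7.75, 7.48 and 7.10 in knockout libraries). Txndc11, Tvp23a, Zc3h7a and Sinhcaf were chosen after their values were seen.

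Among the promoters of RefSeq (GRCm38.p6, 250 bases before to 50 after the start), 57 of the 77 canonical genes and Rpl39l were matched. The letters CCGGAAG, a core bound by ETS-family factors such as GABP, occurred on either strand in 24 of 57 canonical genes (42.1%) and in 9.93% of 27025 genes with a promoter in that table. CTTTCC, a pyrimidine stretch, occurred in 50.9% and 29.3%, and AAGATGG, a YY1 core, in 15.8% and 7.28%. The 250 bases before the RefSeq start of Rpl39l (chr16:10169978-10170227, plus strand) hold CCGGAAG 2 times, in capitals. They are printed because Rpl39l carries the largest difference among the genes described.
Rpl39l promoter: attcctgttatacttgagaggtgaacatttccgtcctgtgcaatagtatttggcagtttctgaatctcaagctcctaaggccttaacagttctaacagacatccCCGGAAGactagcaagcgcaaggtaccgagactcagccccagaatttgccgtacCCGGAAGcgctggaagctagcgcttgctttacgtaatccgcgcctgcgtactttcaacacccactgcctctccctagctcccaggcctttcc
A match of letters is a description and not a binding site.

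The remaining paralogs were not called. Of the 13 paralogs 10 passed the filter of at least 1 FPKM in at least 3 libraries, 2 were called higher and 0 lower by limma; over all 12136 tested genes 10.4% were called higher and 9.20% lower, and 19.6% in either direction. The 2 called are Rpl39l and Rps4l, which are among the 10 only because the knockout libraries are high, so nothing is read from this count. At an unadjusted p under 0.05 there was 1 lower paralog, Rpl22l1, the paralog of the large subunit gene Rpl22, where 15.1% of all tested genes lay. Rpl22l1 had 21.5, 20.5 and 22.8 FPKM in WT and 19.4, 17.1 and 19.0 in knockout libraries (-0.21 ± 0.08 on the log2 scale, limma adjusted p = 0.111). The groups did not overlap, as was so in this direction for 18.0% of all tested genes. Rpl22 itself had 62.9 ± 4.7 and 56.3 ± 4.0 FPKM (mean ± SD, 3 libraries each). Rpl22l1 held 25.6% ± 1.2 of the pair in WT and 24.7% ± 0.5 in knockout libraries.

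Rps27l, a p53-responsive paralog of Rps27, had 103, 95.0 and 101 FPKM in WT and 111, 91.4 and 111 in knockout libraries. The groups overlapped (0.06 ± 0.09, limma adjusted p = 0.714). Rpl7l1, a relative of Rpl7, stood at 29.1 ± 3.8 and 32.2 ± 2.0 (0.15 ± 0.10, limma adjusted p = 0.398). Rpl36al, an autosomal retrocopy of the X-linked Rpl36a that is 87.7% identical to it in the coding sequence, stood at 93.6 ± 5.0 and 93.7 ± 12.02, beside 99.7 ± 10.2 and 89.4 ± 10.8 for Rpl36a. It held 48.5% ± 1.2 of the pair in WT and 51.2% ± 1.5 in knockout libraries. The level of Rpl36a is uncertain, since 81.1% of its windows occur in pseudogenes. For the 8 pairs other than those of Rpl39l and Rps4l, unadjusted p-values of the log2 ratio lay between 0.2 and 0.7 (exact permutation test, n = 3 per group).

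The copies with nearly the sequence of their parent were Rpl37rt (20.6% to 24.1% of the pair over the 6 libraries), Rpl6l (30.0% to 33.7%) and Rpl32l (0.549% to 1.34%). Their aligned bases are 99.7%, 98.7% and 97.2% identical to the parents Rpl37, Rpl6 and Rpl32, and how the counting divided reads between such copies is not stated, so their levels are uncertain. Rpl32l shares no whole window with another gene. Rpl3l, the striated muscle form of Rpl3, had at most 0.04 FPKM in a library. The germ cell paralog Rpl10l was listed at 0 in all 6 libraries, and Rps12l1, whose windows all occur in other genes, was above 0 in 1 WT library only (0.34). Rps23rg1 stayed below the filter (0.15 to 0.48 FPKM), and Rps19bp1 stood at 14.7 ± 1.4 and 14.0 ± 1.6 (limma adjusted p = 0.74).

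Of the 77 canonical genes, each of which passed the filter, limma called 0 higher and 0 lower, beside 10.4% higher and 9.20% lower over all tested genes. At an unadjusted p under 0.05 there were 3 lower and 1 higher canonical genes; over all tested genes 15.1% and 16.0% lay there. edgeR called 1 lower (Rps20) and DESeq2 2 (Rps20 and Rpl10a), and each called 0 higher. Over all genes edgeR called 8.12% lower and 8.48% higher (16.6% in all), and DESeq2 7.96% lower and 8.61% higher (16.6% in all). The log2 fold change was below 0 for 69 of the 77 (89.6%), against 49.2% of all tested genes, and its median was -0.15 against 0.01 for all tested genes. The quartiles of the canonical genes were -0.23 and -0.09, and those of all tested genes -0.16 and 0.17. For 74 of 77 the 95% interval lay within 1 log2 unit of 0. In bulk samples, fewer cells of a type and less RNA per cell cannot be told apart.

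**Figure D2:**
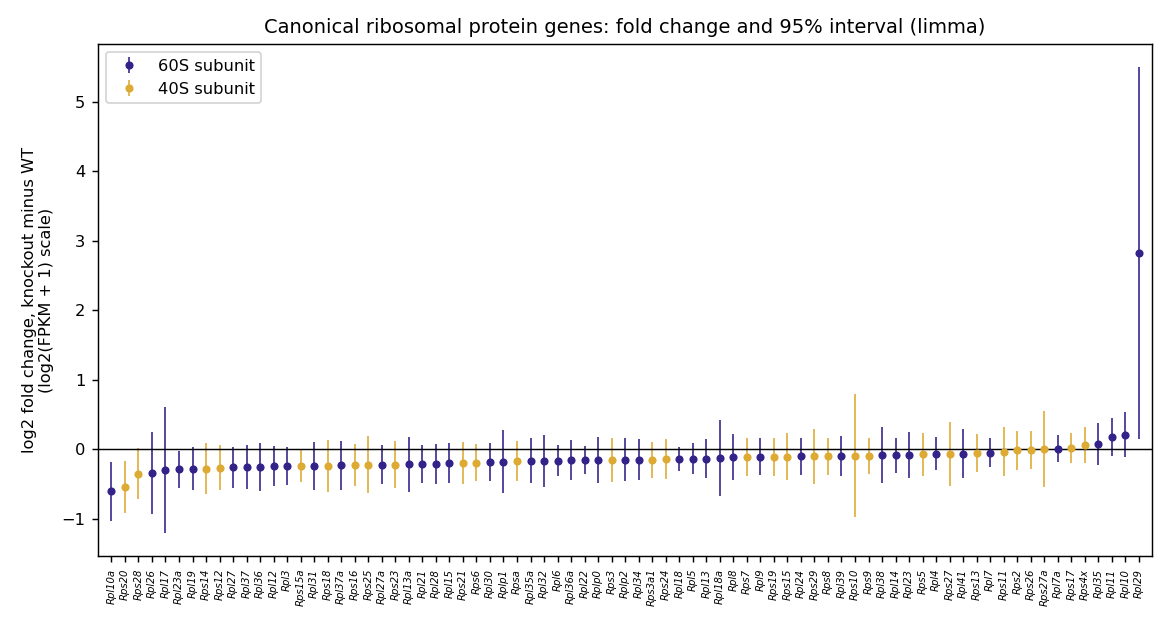
Log2 fold change (knockout minus WT, log2(FPKM + 1) scale) of the 77 canonical ribosomal protein genes with 95% limma intervals, ordered by size and coloured by subunit. Most points lie slightly below 0 with a median of -0.15, and Rpl29 alone lies far above with an interval from 0.15 to 5.50.

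The subunits differed little from each other. The median log2 fold change was -0.16 over 46 genes of the large subunit and -0.11 over 31 of the small subunit, with 41 and 28 genes below 0. The summed FPKM of the large subunit was 1.46 to 1.52 times that of the small subunit in every library. These medians describe the lists and were not tested.

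The downward shift was uneven over the libraries. Canonical genes took 4.78%, 4.29% and 5.02% of the estimated counts in WT replicates 1, 2 and 3 and 4.42%, 3.70% and 4.67% in knockout replicates 1, 2 and 3. The groups overlapped, with knockout replicate 3 above WT replicate 2, while between libraries with the same day number in their titles the knockout share was the lower in 3 of 3. Knockout replicate 2 had the lowest value of the 6 libraries for 68 of the 77 genes, and WT replicate 3 the highest for 41. The median difference from the WT mean was 0.04, -0.12 and 0.09 in WT replicates 1, 2 and 3. It was -0.09, -0.36 and -0.01 in knockout replicates 1, 2 and 3. In WT replicate 2 and in knockout replicate 2 alike, 73 of the 77 genes lay below the WT mean. Without knockout replicate 2 the median log2 fold change was -0.05 and 56 of 77 genes lay below 0. Without WT replicate 2 the median was -0.22, and without WT replicate 3 it was -0.10.

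**Figure D3:**
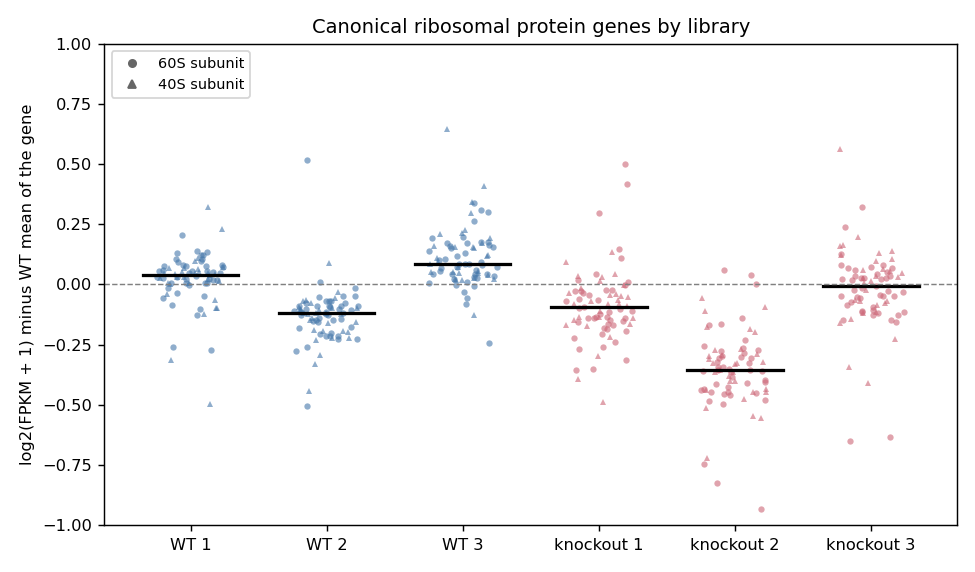
Log2(FPKM + 1) of each canonical gene minus its WT mean, by library (circles, large subunit; triangles, small subunit; bar, median over 77 genes). Knockout replicate 2 sits lowest with a median of -0.36 and knockout replicate 3 close to 0; the 6 points of Rpl29 fall outside the plotted range.

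Within the canonical genes the highest levels belonged to the stalk proteins Rplp1 (1596 ± 274 FPKM in WT, 1412 ± 247 in knockout libraries) and Rplp0 (1441 ± 106 and 1299 ± 168), which recruit elongation factors, and to Rps15 (1098 ± 105 and 1023 ± 136). Mean FPKM over the 6 libraries ran from 34.7 for Rpl21 to 1504 for Rplp1, with a median of 228. The lowest levels belonged to Rpl21 (37.2 ± 2.3 and 32.1 ± 4.5), Rpl22 and Rps15a (67.4 ± 4.8 and 57.1 ± 6.2). Across the 77 genes the fold change had a Spearman rho of 0.08 with level and of -0.09 with transcript length ( genes share libraries and are not independent).

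Rps20 and Rpl10a, chosen after their values were seen, were the canonical genes nearest to a call. Rps20, whose product sits in the head of the small subunit, had 98.4, 68.5 and 71.9 FPKM in WT and 55.6, 47.3 and 59.0 in knockout libraries. Every knockout library was below every WT library. The log2 difference was -0.54 ± 0.16 (adjusted p = 0.0571 with limma, 0.0470 with edgeR and 0.00567 with DESeq2). Rpl10a, whose protein stands at the L1 stalk, had 285, 240.4 and 296 in WT and 228, 142 and 175 in knockout libraries, also without overlap. Its log2 difference was -0.61 ± 0.18 (adjusted p = 0.0612 with limma, 0.0511 with edgeR and 0.00612 with DESeq2). Of its windows 86.0% occur in Rpl10a-ps1, a pseudogene at 49.4 to 81.8 FPKM in WT and 47.2 to 65.5 in knockout libraries. In all, 6 of the 77 canonical genes were lower in every knockout library than in every WT library, and 1, Rpl11, was higher; over all tested genes 18.0% and 18.8% were.

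Rpl29 had the largest difference of the canonical genes and did not pass. It encodes a basic protein of the large subunit, and it was singled out with its values in view. Its FPKM was 11.4, 201 and 8.18 in WT replicates 1, 2 and 3 and 206, 167 and 233 in knockout libraries, from 836, 16591 and 544 against 16345, 12123 and 17249 estimated counts. The groups overlap because WT replicate 2 lies among the knockout values, and the other WT libraries lie more than 10 times lower. The log2 difference was 2.82 ± 1.12 (limma adjusted p = 0.14), and without WT replicate 2 it was 4.24 (limma adjusted p = 0.000318). Rpl29 shares 32.4% of its windows with 10 other annotated genes. Added to these rows, the sum was 90.2, 338 and 83.1 CPM (estimated counts scaled to the library total) in WT and 358, 280.02 and 388 in knockout libraries, and the gap within WT remained in the sum.

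The summed values of Rps27rt and Rpl17 were more even. Rps27rt had 77.8, 228 and 96.5 FPKM in WT and 131, 34.8 and 70.0 in knockout libraries, a spread within each group of several fold. Together with Rps27 and Gm17241, which share its windows, it gave 310, 269 and 313 CPM in WT and 279, 222 and 277 in knockout libraries. Rpl17, a protein near the exit tunnel, had 121, 210 and 124 FPKM in WT and 207, 86.9 and 92.8 in knockout libraries. With the 8 rows that share its windows the sum was 766, 645 and 766 CPM in WT and 668, 505 and 637 in knockout libraries. Over all 77 canonical genes the median log2 difference of the summed families was -0.15, with 71 below 0.

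**Figure D4:**
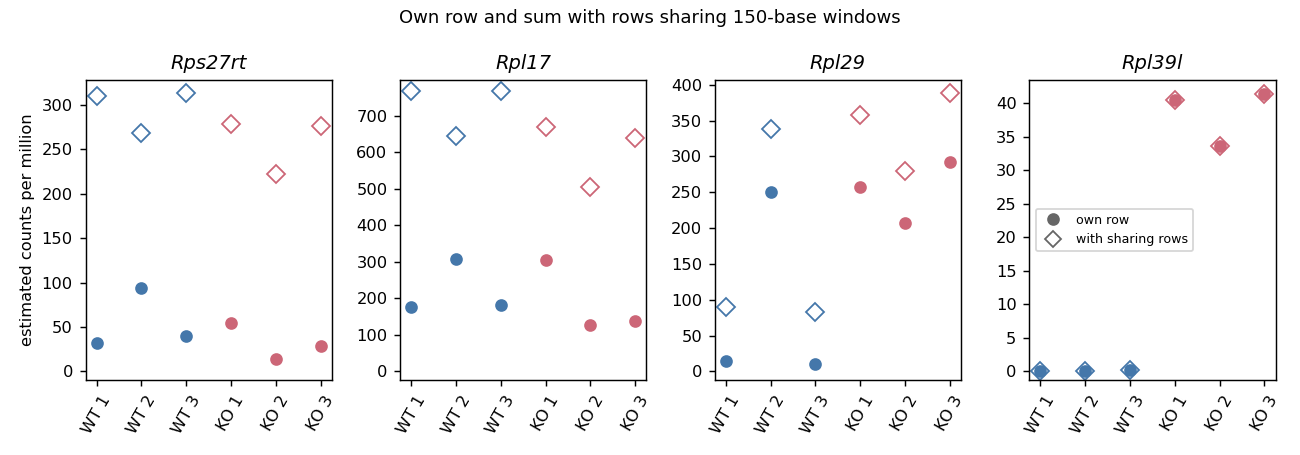
CPM (estimated counts scaled to the library total) for Rps27rt, Rpl17, Rpl29 and Rpl39l by library, for the gene's own row (filled circles) and for the sum with the rows that share a 150-base window (open diamonds); KO, Nlrp3 knockout. The sums of Rps27rt and Rpl17 are even where the own rows are not, those of Rpl29 keep the gap of WT replicates 1 and 3, and Rpl39l has no sharing row.

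Rows named as pseudogenes of ribosomal proteins numbered 319, of which 136 were tested. Of these limma called 1 higher, Rpl3-ps2 (0.99 on the log2 scale, adjusted p = 0.0439), and 0 lower, where 10.4% and 9.20% of all tested genes were called. Their median log2 fold change was -0.16, close to that of the canonical genes, and they held 0.318% to 0.457% of the estimated counts of a library.

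Genes that make and use ribosomes were compared next. Rack1, a signalling scaffold on the small subunit, stood at 265 ± 24 and 197 ± 33 FPKM in WT and knockout libraries (-0.44, limma adjusted p = 0.084), and Fau, which encodes RPS30, stood at 309 ± 22 and 280.2 ± 39.9. Neither was called. Of 41 translation factors 1 was higher and 0 lower, below the 10.4% and 9.20% of all tested genes. The higher one was Eif2s3x, the gamma subunit of the initiation factor that brings the first tRNA (42.5 ± 0.8 to 55.3 ± 3.5 FPKM, limma adjusted p = 0.0109; 0.0519 to 0.0541 without WT replicate 1 or 3 or knockout replicate 1).

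Of 81 tested ribosome biogenesis genes, 12 were higher and 1 lower (limma), with a median log2 fold change of 0.13, beside 10.4% and 9.20% of all tested genes and a median of 0.01. The nucleolar helicase Ddx21 rose from 30.3 ± 1.0 to 44.5 ± 2.5 FPKM (0.54 ± 0.07, limma adjusted p = 0.00201). Ltv1, a factor of small subunit maturation, rose from 12.7 ± 0.6 to 17.8 ± 0.9 (0.45 ± 0.07, limma adjusted p = 0.00447). Rrp12, which acts in subunit export, rose from 6.29 ± 0.40 to 9.10 ± 0.95 (0.47 ± 0.09, limma adjusted p = 0.0136), but had 0.0622 and 0.0555 without WT replicate 1 or 2. The share of higher genes, 12 of 81, is near the background, and that of lower genes, 1 of 81, is below it. In 29 of the 81 every knockout library was above every WT library, and in 4 below. Over all tested genes 18.8% and 18.0% were. The summed FPKM of the list was 1335 to 1399 in WT and 1436 to 1558 in knockout libraries. The list was not tested as a set.

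Among 23 tested regulators of ribosomal protein synthesis 3 were higher and 0 lower (limma), near the 10.4% and 9.20% of all tested genes. Mdm2, the p53 ubiquitin ligase to which free RPL5 and RPL11 bind, rose from 10.04 ± 0.23 to 17.7 ± 1.8 FPKM (0.76 ± 0.09, adjusted p = 0.0014). In the same libraries Rpl5 had a log2 difference of -0.14 and Rpl11 of 0.17, and neither passed. Rps6ka2, a ribosomal S6 kinase, had 3.76 ± 0.16 and 4.99 ± 0.24 (adjusted p = 0.0207), and Eif4ebp2, which restrains cap-dependent initiation, had 17.9 ± 0.7 and 21.5 ± 1.2 (adjusted p = 0.0431). Rps6ka2 lost its call without any 1 WT library or knockout replicate 1 (0.0545 to 0.0888) and with the replicate block (0.0623). Eif4ebp2 lost its call without any 1 of the 6 libraries (0.0657 to 0.165), with edgeR (0.0862) and DESeq2 (0.0911), under median centring (0.0925), with the replicate block (0.0626) and with no expression filter (0.0532). Of 78 mitochondrial ribosomal protein genes, a list added after the values were seen, 0 were higher and 4 lower, no more than the 10.4% and 9.20% of all tested genes. Those named by size are Mrps6 (24.1 ± 1.0 to 14.8 ± 1.0 FPKM, -0.67 ± 0.07, limma adjusted p = 0.00111), Mrpl53 (4.93 ± 0.56 to 2.76 ± 0.52, adjusted p = 0.0121) and Mrpl55 (14.9 ± 2.4 to 9.72 ± 0.52, adjusted p = 0.0194). Mrpl55 lost its call without WT replicate 1 (0.0746), WT replicate 3 (0.0529) or knockout replicate 1 (0.0628) and with the replicate block (0.0533), and Mrpl53 with edgeR without a count filter (0.0532).

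**Figure D5:**
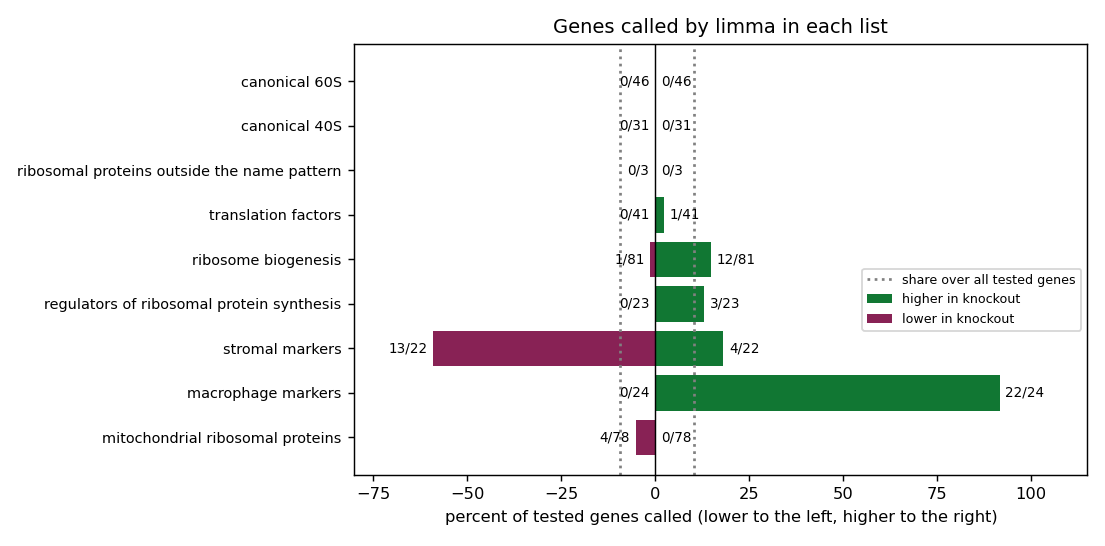
Percent of tested genes in each list that limma called lower (bars to the left) or higher (bars to the right) in the knockout libraries, with counts beside the bars; dotted lines mark the shares over all tested genes, 9.20% lower and 10.4% higher. Neither subunit has a called gene, and 22 of 24 macrophage markers were higher.

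The libraries carried the labels' genotype: Nlrp3 had 444 to 730 estimated counts in the WT libraries and 0 in each knockout library. Depth was 53157580 to 66298470 estimated counts per library. Of 23 stromal markers 22 passed the filter, 4 were higher and 13 lower (limma), beside 10.4% higher and 9.20% lower over all tested genes. Their summed FPKM was 6633 to 6910 in WT and 5004 to 5375 in knockout libraries. The sum hides larger differences of single markers. The 3 named by size are all lower, while 4 markers of the list were higher and 5 were not called. Thy1 went from 134 ± 6 FPKM in WT to 11.8 ± 1.2 in knockout libraries. Pdgfra went from 30.2 ± 1.7 to 2.96 ± 0.23 and Ly6a from 188 ± 71 to 46.1 ± 5.9. Of 29 macrophage markers 24 passed, 22 were higher and 0 lower (limma), beside the same 10.4% and 9.20% over all tested genes. Their summed FPKM was 789 to 894 in WT and 1823 to 2079 in knockout libraries, and no marker of the list was at 0 in all libraries. Macrophage markers named by size are Marco (10.15 ± 0.88 to 47.25 ± 3.12 FPKM), Clec4d (12.1 ± 0.2 to 43.6 ± 3.3) and Adgre1 (44.0 ± 2.7 to 134 ± 3). The part of these marker differences in the values of Rpl39l, Rps4l, the canonical genes and the other lists was not tested. Of 12 lymphoid and erythroid markers none passed the filter, and 5 were listed at 0 in all 6 libraries.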

How the data were processed

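Tools named in the submitters' processing notes are StringTie 1.3.4d, HISAT2 2.0.4 and cutadapt 1.9. The authors deposited FPKM values and estimated counts per gene, per the file headers; no source used here states the annotation release, strand setting or filters. The deposited estimated counts are whole numbers; of values from 1 to 20, 42.4% are multiples of 4, so a fragment was taken as about 4 counts, an inference used only for counting intervals. Genes with at least 1 FPKM in at least 3 libraries entered a two-sided test of genotype by limma 3.58.1 (R 4.3.3, intensity trend) on the log2(FPKM + 1) scale, and p-values were adjusted by Benjamini-Hochberg over 12136 genes at a threshold of 0.05. edgeR 4.0.16 (quasi-likelihood) and DESeq2 1.42.0 on the estimated counts, other filters and scalings, a pseudocount of 0.1, a replicate block and leaving out each library were alternatives; summing rows that share windows was added after seeing the data. The scripts were tested on simulated data. The members, gene lists and tests were chosen with earlier results of these data known. Genes named are the paralogs and their parents, called canonical genes, the 3 highest and lowest canonical genes and up to 3 called genes per list; others are marked. Titles number the libraries as days 1 to 3, while another label gives day 1 for all, so the numbers only name replicates. Shared windows were exact 150-base matches between GENCODE M21 transcripts, on the sense strand, with 1 principal transcript per gene. Genomic copies outside these transcripts were not searched. Some items are not reported here.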

Additional observations from a re-analysis of the deposited data

How the results depend on the processing

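Rpl39l and Rps4l were called higher under every alternative that tested them. Where the filter of 1 FPKM applied, both entered only through the high knockout libraries, so nothing is read from that agreement. Requiring 1 FPKM in all 6 libraries leaves both untested. Leaving out any 1 knockout library does so too, since too few libraries then reach 1 FPKM. Whether the calls hold without a knockout library was therefore not tested. Over the alternatives that tested it, the log2 fold change of Rpl39l ran from 5.22 to 8.68, depending on the pseudocount and tool. No canonical gene was called with limma as reported. Of the 77, quantile normalization called 5 lower (Rps20, Rpl28, Rps16, Rpl10a and Rpl3), edgeR 1 and DESeq2 2. Over all tested genes, quantile normalization called 1209 of 12136 lower, edgeR 8.12% and DESeq2 7.96%. The fit with the number in the titles as replicate block called 4 lower (Rps20, Rpl10a, Rpl37 and Rps28), beside 980 of the 12136 genes. Over all tested genes, deviations of same-numbered libraries correlated at only 0.02, 0.17 and 0.10. The canonical share of the estimated counts, however, was lowest in replicate 2 and highest in replicate 3 of each genotype. With 1 library left out, 0 to 1 canonical genes were lower (Rpl10a without knockout replicate 1) and 0 to 1 higher (Rpl29 without WT replicate 2). The median canonical log2 fold change stayed below 0 under all alternatives, from -0.22 without WT replicate 2 to -0.05 without knockout replicate 2. Over all genes, with 1 library left out, 583 to 1281 were lower and 705 to 1464 higher, and DESeq2 called 1680 lower; the cause was not tested. Members near 0 changed sign without being called. Under quantile normalization the log2 fold change was 0.034 for Rpl36al, 0.013 for Rpl7 and 0.046 for Rps27. With 1 library left out it ran from -0.59 to 0.057 for Rpl32l, from -0.10 to 0.077 for Rpl36al, from -0.17 to 0.030 for Rpl39, from -0.15 to 0.0030 for Rpl6l, from -0.19 to 0.0051 for Rps15, from -0.14 to 0.017 for Rps19bp1 and from -0.29 to 0.049 for Rps27, and the log2 ratio of Rpl32l to Rpl32 ran from -0.40 to 0.14.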
